A study of Mus musculus with 12 samples.

Results

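Tumors of obese mice were compared with tumors of nonobese mice when both received anti–PD-1, an antibody that blocks the inhibitory receptor PD-1 on T cells. The comparison rested on 6 of the 12 tumors of the series, 3 from obese and 3 from nonobese mice, and ran over all 13095 genes with enough counts to be tested. The tumors grew from B16-F10, a melanoma cell line of C57BL/6 origin, placed under the skin of male C57BL/6J mice. Obese mice had eaten a Western diet with added cholesterol for 15 weeks, and nonobese mice a matched control diet. Anti–PD-1 was injected repeatedly at 10 mg/kg once tumors could be felt. The other 6 tumors came from mice of both diets given an isotype control antibody at the same dose, and they entered the model to share its estimate of the spread. All mice carried the same transplanted line and were of 1 sex, so neither spontaneous tumors nor females are represented. The labels give no mouse identities, and each P value sets a group difference against a spread estimated from these 12 tumors only.

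Interferons are secreted signals that induce a large set of genes against viruses and for antigen display in nearly every cell that receives them. Type I interferons act through a complex that holds IRF9 and binds the interferon-stimulated response element, whereas IFN-γ from T and NK cells induces MHC molecules, immunoproteasome subunits and a family of large GTPases. T cells released by PD-1 blockade are a source of IFN-γ in tumors.

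Counts on genes ran from 14466484 to 32470693 in the 6 tumors, so the 3 counts taken as the detection floor equaled 0.0928 to 0.212 CPM. CPM stands for counts scaled to a common library size, and these values are adjusted by library size and TMM factor and are compared between tumors, not between genes. The melanocyte markers, which mark the line itself, summed to 37817 to 42661 CPM in nonobese and 40260 to 44916 CPM in obese tumors, and 0 of 18 were called in either direction. Nonobese replicate 3 stood apart from the other 11 tumors on the second principal component (-48.7, against -14.8 to 18.4).

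Genes were counted as called when the fold change exceeded 2 with an unadjusted P below 0.05 in edgeR, thresholds taken from the methods of the original work. Under anti–PD-1, 483 genes were higher in obese tumors (3.69% of those tested) and 74 were lower (0.565%). Of the genes tested, 186 passed the filter on counts only through the obese anti–PD-1 tumors, and 65 of these are among the 483. The higher genes had a median log2 fold change of 1.63 and the lower genes of -1.41, while the median of all genes was -0.01. After Benjamini-Hochberg adjustment over all genes, 47 genes were higher (0.359%) and 3 lower (0.0229%) at an FDR below 0.05. These numbers were 92 and 3 under a replicate block and 0 and 0 in a fit of only the 6 tumors. Their sum of 50 became 4 without nonobese replicate 1, 2 without nonobese replicate 2, 4 without obese replicate 2 and 3 without obese replicate 3. It became 93 without nonobese replicate 3 and 214 without obese replicate 1. Isotype tumors also moved it: the number higher was 54 without nonobese isotype replicate 1 and between 11 and 20 without each of the other isotype tumors. All 3 obese tumors lay above all 3 nonobese tumors for 292 of the 483 higher genes, against 6.54% of all genes. For 40 of the 74 lower genes the obese tumors lay below, against 7.06% of all genes. The thresholds themselves favor genes without overlap.

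The direction was uneven by size of change more than by number. Of 1345 genes with an unadjusted P below 0.05, where 654.75 were expected by chance, 748 were higher and 597 lower in obese tumors. Their median log2 fold changes were 1.29 and -0.45. The lower genes therefore seldom reached a 2-fold change. The share of higher genes among called genes was 86.7%, and it ranged from 64.4% without nonobese replicate 1 to 93.1% without nonobese replicate 3.

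Several of the genes with the smallest P values carried an interferon-stimulated response element in their promoter. The motif searched was GAAANNGAAA or its reverse complement TTTCNNTTTC in the 250 bases before the start site, taken from RefSeq on GRCm38.p6, which has the same chromosome sequences as mm10. It was found in 310 of the 9753 tested genes with a promoter entry (3.18%), in 47 of 333 called higher (14.1%) and in 14 of 38 higher at an FDR below 0.05 (36.8%). Among called lower genes, 1 of 49 held it (2.04%). A match is a run of letters and was not shown to be a bound site. The windows of 8 genes are printed 5′ to 3′ on the strand of the gene, because these genes open the sections on interferon, GTPases and MHC class I. Capitals mark the motif, and overlapping matches run together.
Ifit3: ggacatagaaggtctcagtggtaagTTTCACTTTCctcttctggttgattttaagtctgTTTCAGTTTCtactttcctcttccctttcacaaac
Ifit1: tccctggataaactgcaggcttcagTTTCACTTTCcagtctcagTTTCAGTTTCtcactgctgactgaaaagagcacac
Rsad2: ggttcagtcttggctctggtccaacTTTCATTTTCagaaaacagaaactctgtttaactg
Apol9a: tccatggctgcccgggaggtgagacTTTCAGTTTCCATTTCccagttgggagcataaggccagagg
Irgm1: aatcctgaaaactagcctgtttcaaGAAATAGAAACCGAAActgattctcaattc
Igtp: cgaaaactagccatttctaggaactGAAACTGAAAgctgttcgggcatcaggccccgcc
B2m: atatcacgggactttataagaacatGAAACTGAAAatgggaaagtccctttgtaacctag
H2-T23: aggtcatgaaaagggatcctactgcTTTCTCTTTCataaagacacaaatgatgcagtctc

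The windows lie at chr19:34583348-34583441 (plus strand, Ifit3), chr19:34640760-34640838 (plus, Ifit1), chr12:26456538-26456597 (minus, Rsad2) and chr15:77411099-77411164 (minus, Apol9a). Those of the other genes lie at chr11:48871421-48871475 (minus, Irgm1), chr11:58199497-58199555 (plus, Igtp), chr2:122147523-122147582 (plus, B2m) and chr17:36032791-36032850 (minus, H2-T23). Ifit3, Ifit1, Apol9a and Irgm1 each held 2 matches, and the first match began between 30 and 156 bases before the start site in these 8 genes. The window of Ifit3 lies inside the full span of the gene, because the start site in the promoter table lies downstream of the first base of the gene.

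The list of type I interferon-stimulated genes held the most genes with an FDR below 0.05 of any list. Which interferon, if any, raised them was not tested. Of 42 tested members of the list, 27 were called higher and 0 lower, 15 members had an FDR below 0.05, and the median log2 fold change was 1.30. For 30 of the 42 all obese tumors lay above all nonobese tumors. The count of called members stayed between 24 and 33 when each tumor was left out. The list was compiled with earlier results of these tumors known.

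Ifit3 (chromosome 19, 34583119 to 34588982), an antiviral protein that works with Ifit1, had the smallest P value of all genes. Its level was 7.57, 9.12 and 9.45 CPM in nonobese replicates 1, 2 and 3 and 29.1, 61.7 and 45.8 CPM in obese replicates 1, 2 and 3. The groups did not overlap, and the obese tumors were spread more widely than the nonobese tumors. The fold change was 5.22 (log2 2.38, standard error 0.23, FDR 0.00135 from edgeR). Rsad2 (chromosome 12, 26442743 to 26456452), which encodes viperin, an enzyme that makes a chain-terminating nucleotide, was at 18.7, 18.2 and 20.2 CPM in nonobese and 40.4, 58.1 and 50.7 CPM in obese tumors. Its nonobese tumors were nearly equal. This gave 1.39 as the log2 fold change (FDR 0.00293 from edgeR, standard error 0.15).

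Apol9a (chromosome 15, 77403789 to 77411080), an interferon-induced apolipoprotein L, had the largest fold change of the list. It measured 0.610, 0.680 and 1.47 CPM in nonobese and 3.17, 13.6 and 8.49 CPM in obese tumors, which is 3.20 on the log2 scale (FDR 0.0182 from edgeR, standard error 0.48). Reads of Apol9a and its near copy Apol9b may not be separable. Ifit1 (log2 1.81), the Ifit3 copy I830012O16Rik (2.20), Parp9 (1.19), Rtp4 (1.88), Ifi27l2a (2.07), Usp18 (1.80), Bst2 (1.12), Cmpk2 (1.24), Ube2l6 (1.33) and Sp100 (1.51) also had an FDR below 0.05. Samd9l (0.95) and Ifitm3 (0.99), which restrict poxviruses and virus entry, passed the FDR threshold at a change just under 2-fold. Isg15, a ubiquitin-like modifier, was at 18.4 ± 5.46 CPM in obese and 7.52 ± 1.45 CPM in nonobese tumors (SD, n = 3 each), with an FDR of 0.0593 from edgeR. Mx1, another classical member, overlapped between the groups at a log2 value of 0.43 (FDR 0.894 from edgeR, standard error 0.62).

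**Figure D1:**
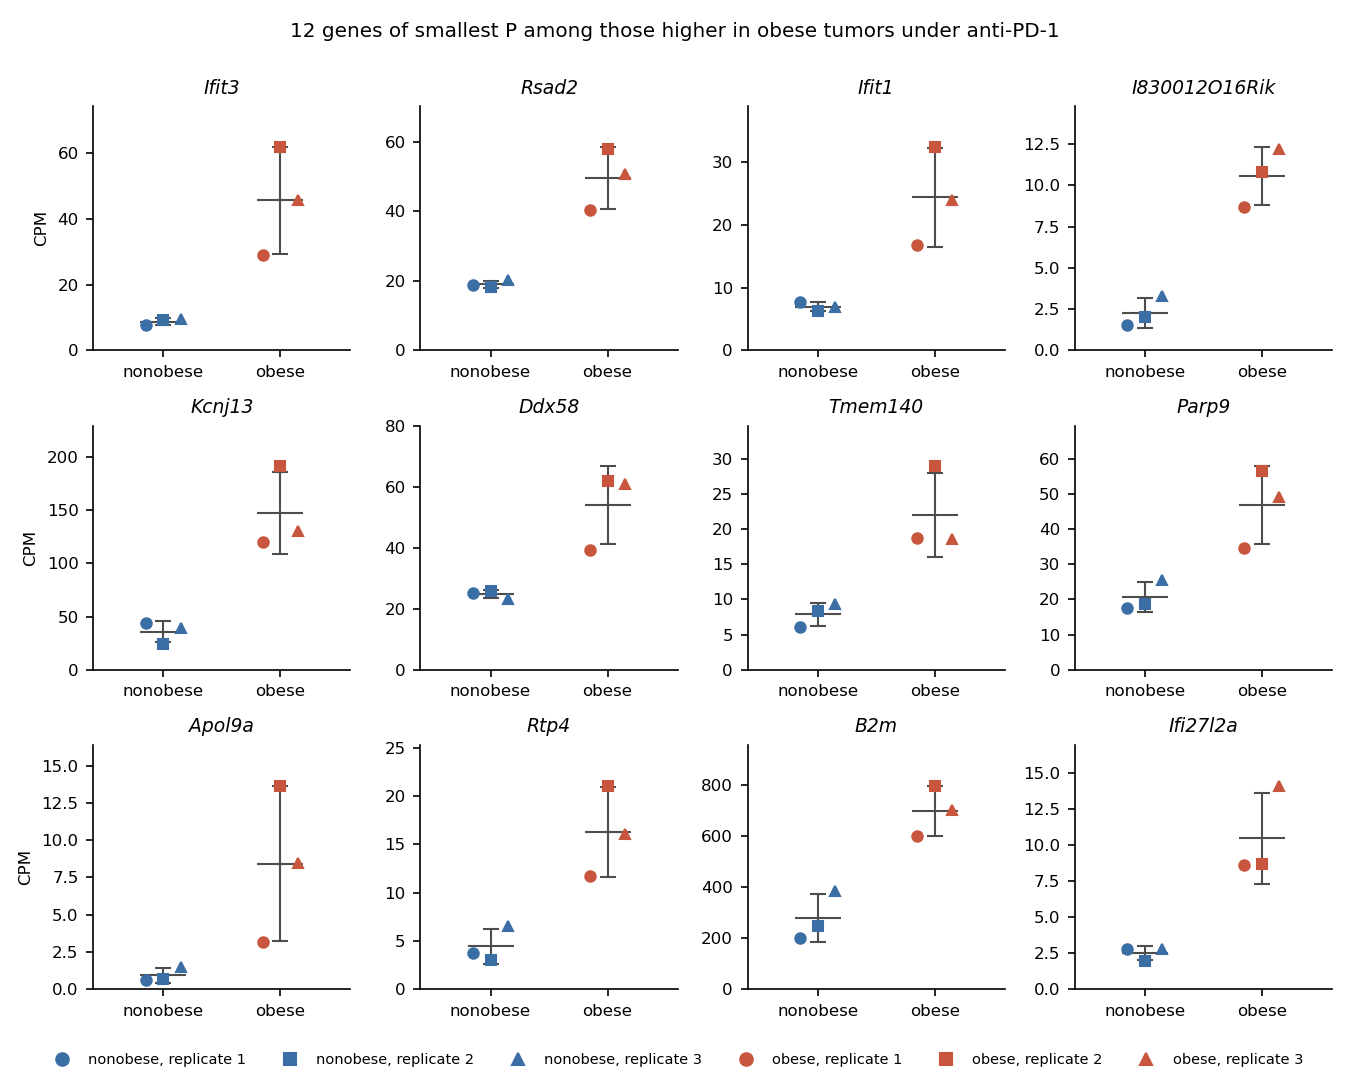
CPM of the 12 genes with the smallest P values among those called higher without overlap, in nonobese (left) and obese (right) tumors under anti–PD-1. Points are single tumors with a marker for each replicate, and the bar and whiskers are the mean and SD of 3 tumors. Ifit3 lay between 7.57 and 9.45 CPM in nonobese and between 29.1 and 61.7 CPM in obese tumors.

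Sensors of nucleic acids switch on interferon production, and signal carriers relay it to the nucleus. Of 21 tested nucleic acid sensing genes, 10 were called higher and 0 lower, with a median log2 fold change of 0.99. That median was 0.52 without nonobese replicate 2, 1.31 without nonobese replicate 3 and as low as 0.50 under other settings. Ddx58, which encodes the RNA sensor RIG-I, was at 25.3, 25.9 and 23.2 CPM in nonobese and 39.3, 61.9 and 60.9 CPM in obese tumors, without overlap (log2 1.12, standard error 0.16, FDR 0.0173 from edgeR). The related sensor gene Ifih1 had a log2 fold change of 1.35 (FDR 0.0264). Of 20 tested signaling genes, 4 were called higher, among them the transcription factor genes Irf1 (log2 1.41), Irf7 (1.76) and Irf8 (1.68), and the median of the list was 0.20. Irf7 is also on the list of interferon-stimulated genes. The count of 4 was 2 without obese replicate 2 and 7 without nonobese replicate 3 or obese replicate 1. Of the 20, 0 had an FDR below 0.05 from edgeR, and 8 had an unadjusted P below 0.05, all higher in obese tumors.

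The IFN-γ–inducible GTPases, which attack vacuoles that hold pathogens, were called higher for all 17 tested members. Their log2 fold changes lay between 1.87 and 3.65, and the median was 2.60. Of these 17 members, 15 would also have passed the filter on counts without the obese tumors. For 9 of them the groups did not overlap, and the nonobese tumors were spread over a wide range. Irgm1 (chromosome 11, 48865245 to 48871420), a regulator of the family, was at 31.6, 35.9 and 58.9 CPM in nonobese and 77.5, 307 and 194 CPM in obese tumors. Obese replicate 1 lay nearer to the nonobese tumors than to the other obese tumors. This gave 2.20 as the log2 fold change (FDR 0.0267 from edgeR, standard error 0.37).

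Igtp (chromosome 11, 58199556 to 58207592), a relative of Irgm1, ran from 5.24 to 21.9 CPM in nonobese and from 29.0 to 173 CPM in obese tumors, or 2.98 on the log2 scale (FDR 0.0408 from edgeR). Tgtp2 and Irgm2 also passed the FDR threshold, with log2 fold changes of 3.25 and 2.14, and Tgtp2 is a near copy of Tgtp1. The same order of tumors held across the family: obese replicate 2 was the highest obese tumor for 17 of 17 members and obese replicate 1 the lowest for 17 of 17. Without obese replicate 2, 13 of the 17 were called.

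Antigen display genes followed. Of 24 tested genes of MHC class I and peptide loading, 15 were called higher and 0 lower, 7 members had an FDR below 0.05, and the median log2 fold change was 1.14. Of the 24, 1 passed the filter only through the obese tumors, and it is among the 15. B2m (chromosome 2, 122147687 to 122153082), the light chain of every MHC class I molecule, was at 202, 250 and 386 CPM in nonobese and 599, 798 and 702 CPM in obese tumors. The groups were well separated, at a log2 value of 1.32 (FDR 0.0260 from edgeR, standard error 0.21). The nonclassical class I gene H2-T23 (chromosome 17, 36029977 to 36032701), whose product binds inhibitory NK receptors, was at 9.30, 8.63 and 12.5 CPM in nonobese and 18.1, 43.5 and 28.7 CPM in obese tumors. It too was without overlap (log2 1.58, standard error 0.26, FDR 0.0264 from edgeR). The classical gene H2-D1 had a log2 fold change of 1.10 (FDR 0.0435), and H2-K1 of 1.11 (FDR just above 0.05). Class I genes are similar in sequence, and their reads may be shared.

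Subunits of the immunoproteasome, which cuts peptides for class I, were among the called members. Psmb8 was at 3.66, 6.31 and 11.1 CPM in nonobese and 13.7, 66.4 and 41.7 CPM in obese tumors (log2 2.53, standard error 0.48, FDR 0.0435 from edgeR), with obese replicate 1 just above the highest nonobese tumor. Psmb10 had a log2 fold change of 1.44. The proteasome activator genes Psme2 and Psme1 had smaller changes, of 1.04 and 0.75, with tighter tumors and an FDR below 0.05. Without obese replicate 2, the number of class I genes called fell from 15 to 10.

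All 8 tested genes of MHC class II, which displays peptides to helper T cells, were called higher, with a median log2 fold change of 2.12. All 8 also passed the filter without the obese tumors. For only 2 members, H2-DMb1 and Ctss, were the groups without overlap, and these were also the 2 with an FDR below 0.05. H2-DMb1, whose product edits the bound peptide, was at 8.59, 7.79 and 13.7 CPM in nonobese and 18.3, 27.3 and 22.3 CPM in obese tumors (log2 1.18, standard error 0.21, FDR 0.0363 from edgeR). The cathepsin gene Ctss, which trims the invariant chain, had a log2 fold change of 1.72 (FDR 0.0408). H2-Aa, a chain of the classical dimer, ran from 4.73 to 32.3 CPM in nonobese and from 25.2 to 123 CPM in obese tumors, so that obese replicate 1 fell below nonobese replicate 3. Its FDR was 0.158 from edgeR at a log2 fold change of 2.33.

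**Figure D2:**
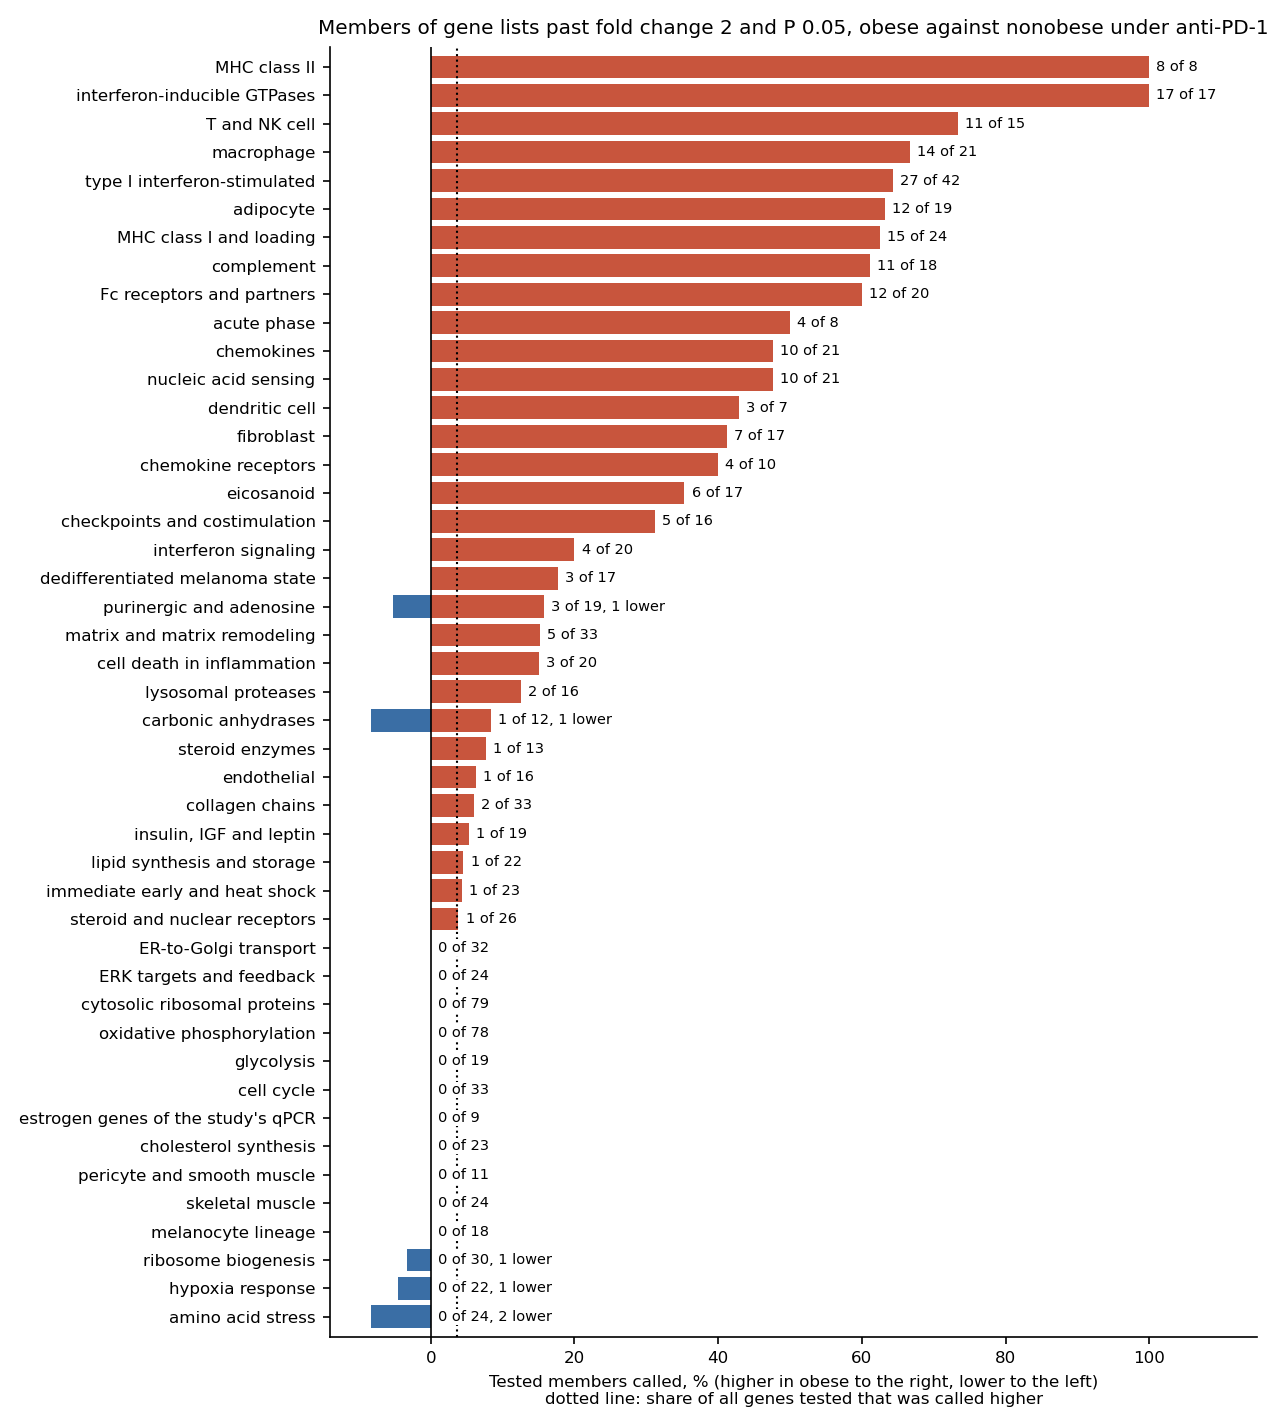
Share of tested members of each gene list, with 7 or more tested members, that was called higher (right, red) or lower (left, blue) in obese tumors under anti–PD-1, with the counts beside the bars. The dotted line marks the 3.69% of all genes that was called higher. MHC class II (8 of 8) and the interferon-inducible GTPases (17 of 17) reached 100%. Amino acid stress genes had 2 of 24 called lower, against 0.565% of all genes. Carbonic anhydrases (1 of 12), purinergic and adenosine (1 of 19), hypoxia response (1 of 22) and ribosome biogenesis (1 of 30) also held a gene called lower.

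Genes that mark T and NK cells were low in every tumor. The summed level of the 33 markers was 16.2, 15.8 and 18.7 CPM in nonobese and 23.2, 67.5 and 52.6 CPM in obese tumors. The groups did not overlap, although obese replicate 1 lay close to the nonobese tumors. Of the 33 markers, 18 had too few counts to be tested, and 10 of the 15 tested ones passed the filter only through the obese tumors, so their direction is partly set by the filter. Of the 15, 11 were called higher and 0 had an FDR below 0.05, and 9 of the 11 are among those 10, so this count is no support for a direction. With at least 10 counts required in every tumor, 1 was called. In bulk tissue, fewer cells of a type and less RNA per cell cannot be told apart.

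Cd3g (chromosome 9, 44969572 to 44980431), a CD3 chain of T cells, had 0, 4 and 1 counts in nonobese tumors and 16, 53 and 29 counts in obese tumors. Cd8a (chromosome 6, 71373427 to 71379171), which marks cytotoxic T cells, had 1, 5 and 8 counts against 9, 86 and 59. Obese replicate 1 thus exceeded nonobese replicate 3 by 1 count for Cd8a, in a smaller library. In CPM the groups did not overlap for either gene, and the fitted log2 fold changes were 4.60 (standard error 0.95) and 3.72 (standard error 0.76), both with an FDR of 0.0593 from edgeR. The cytotoxic granule gene Nkg7 had 0, 2 and 6 counts against 10, 92 and 45, with an FDR from edgeR just above 0.05. Gzmb, which encodes granzyme B, had 2, 1 and 7 counts against 6, 56 and 38, and Cd3d 0, 3 and 4 against 10, 22 and 38. Ifng, which encodes IFN-γ, had 0, 1 and 4 against 1, 12 and 6 counts and was not tested. Gzmb, Cd3d, Ifng and H2-DMb1 were also measured by qPCR in the original work, so they are not an independent choice.

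Genes of immune checkpoints and costimulation were called higher for 5 of 16 tested members, with 0 at an FDR below 0.05. Of the 16, 3 passed the filter only through the obese tumors, and 1 of these is among the 5. The count was 3 without obese replicate 2 and 8 without nonobese replicate 3. Pdcd1, which encodes PD-1 itself, had 2, 1 and 9 counts in nonobese and 22, 55 and 11 counts in obese tumors, which did not overlap in CPM (log2 3.18, standard error 0.98, FDR 0.222 from edgeR). Among its obese tumors replicate 3 was the lowest, unlike most immune genes. Lag3, Cd86, Cd40 and 4632428N05Rik, which encodes VISTA, were the other 4. Cd274, which encodes PD-L1, was at 4.73, 8.44 and 17.7 CPM in nonobese and 14.1, 21.6 and 15.8 CPM in obese tumors, and its groups overlapped (log2 0.74, standard error 0.35, FDR 0.496 from edgeR).

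Myeloid genes were higher at greater depth of counts. The 22 macrophage markers summed to 192, 234 and 267 CPM in nonobese and 319, 617 and 636 CPM in obese tumors, without overlap. Of 21 tested, 14 were called higher and 0 lower, 0 had an FDR below 0.05, and the median log2 fold change was 1.29. C1qa, a subunit of the complement starter C1q that macrophages make, was at 30.5, 32.5 and 39.2 CPM in nonobese and 44.4, 112 and 112 CPM in obese tumors (log2 1.40, standard error 0.35, FDR 0.126 from edgeR). Obese replicate 1 was again the nearest to the nonobese tumors. Of 18 tested complement genes, 11 were called higher and 0 lower. Of the 18, 2 passed the filter only through the obese tumors, and 1 of these is among the 11. The count of 11 fell to 6 without obese replicate 3 and to 8 without obese replicate 2 or nonobese replicate 1.

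A further list joined receptors for the Fc part of antibodies with signaling partners and general leukocyte genes such as Ptprc and Itgam. Of its 20 tested members, 12 were called higher, with a median log2 fold change of 1.25. Fcgr4 (chromosome 1, 171018926 to 171029761), an activating receptor, was at 2.39, 1.82 and 3.61 CPM in nonobese and 5.71, 16.9 and 15.4 CPM in obese tumors. Its groups were apart (log2 2.29, standard error 0.42, FDR 0.0408 from edgeR). Fcgr3, another activating receptor, had a log2 fold change of 1.41 with the same FDR of 0.0408. The shared signaling chain Fcer1g had a log2 fold change of 1.38 and an FDR of 0.120.

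Chemokines guide leukocytes into tissue. Of 21 tested chemokines, 10 were called higher and 0 lower, with 0 at an FDR below 0.05. Cxcl9, which is induced by IFN-γ and attracts T cells through CXCR3, was at 0.762, 2.94 and 8.20 CPM in nonobese and 6.56, 52.4 and 30.0 CPM in obese tumors. Obese replicate 1 fell below nonobese replicate 3, and the FDR was 0.108 from edgeR at a log2 fold change of 2.90. Cxcl10, its relative, had a log2 fold change of 1.37 without overlap (FDR 0.114 from edgeR).

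Adipocyte genes were higher in obese tumors with another order of tumors. The 20 markers summed to 72.8, 86.1 and 89.5 CPM in nonobese and 177, 149.6 and 267 CPM in obese tumors, without overlap. Of 19 tested, 3 passed the filter only through the obese tumors. Of the 19, 12 were called higher and 0 lower, 4 had an FDR below 0.05, and the median log2 fold change was 1.44. The 3 genes that passed only through the obese tumors are all among the 12, so the filter partly set this count. With at least 10 counts required in every tumor, 3 adipocyte genes were called higher. Obese replicate 2 was the lowest obese tumor for 12 of the 19 genes and obese replicate 1 for 6. Among the 17 GTPases and 8 MHC class II genes it was replicate 1 for every gene.

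Adipoq (chromosome 16, 23146536 to 23157968), which encodes the adipocyte hormone adiponectin, had 3, 10 and 12 counts in nonobese and 45, 42 and 164 counts in obese tumors. It was without overlap (log2 3.65, standard error 0.63, FDR 0.0305 from edgeR). Cidec, a protein of large lipid droplets, was at 0.254, 0.309 and 0.446 CPM in nonobese and 6.77, 1.13 and 6.66 CPM in obese tumors (log2 3.82, standard error 0.72, FDR 0.0435 from edgeR). Obese replicate 2 lay far below the other 2 obese tumors for this gene. Plin1, Pck1 and Lep, which encode perilipin 1, an enzyme of glyceride synthesis and leptin, had log2 fold changes of 3.53, 3.88 and 3.19 and an FDR of 0.100 to 0.146. Nnat, an imprinted gene of fat and nerve tissue, had 0, 0 and 2 counts in nonobese and 51, 5 and 91 counts in obese tumors. Fabp4 and Cd36, which macrophages and endothelial cells also express, had log2 fold changes of 1.35 and 1.18 at an FDR of 0.0393 and 0.0435 and had at least 233 counts in every tumor.

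**Figure D3:**
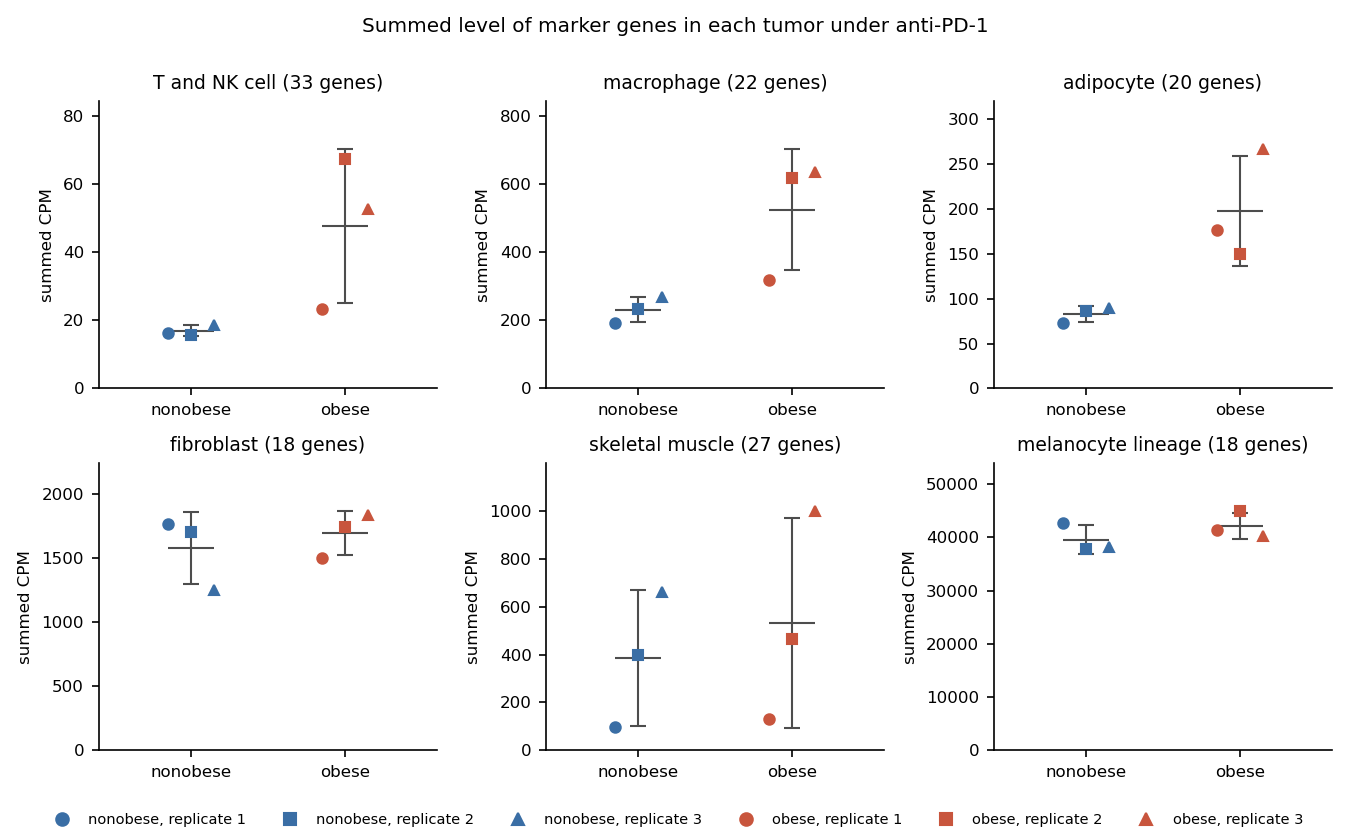
Summed CPM of the marker genes of 6 cell types in each tumor under anti–PD-1. Points are single tumors with a marker for each replicate, and the bar and whiskers are the mean and SD of 3 tumors. T and NK cell, macrophage and adipocyte markers were higher in all 3 obese tumors, while fibroblast, skeletal muscle and melanocyte markers overlapped.

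Skeletal muscle markers varied widely within both groups, from 95.7 to 663 CPM in nonobese and from 131 to 998 CPM in obese tumors, and 0 of 24 were called (2 higher with the replicate block and 1 lower without obese replicate 2). Among fibroblast markers, 7 of 17 were called higher with 0 at an FDR below 0.05, but the summed level overlapped (1255 to 1771 CPM in nonobese and 1506 to 1839 CPM in obese tumors). That count was 1 without nonobese replicate 1 or obese replicate 3, 3 without obese replicate 2, 4 without nonobese replicate 2 and 11 without obese replicate 1. Of 33 tested collagen chains, 2 were called higher, Col1a1 and Col14a1, with an FDR of 0.456 and 0.482. These 2 are not read as a result about collagens, since 3.69% of all genes were called higher. With DESeq2 or the robust prior 0 chains were called higher, and with the replicate block or only the 6 tumors 5 were called higher and 1 lower. The count of collagen chains was 12 without obese replicate 1, 6 and 5 without obese isotype replicate 2 and nonobese isotype replicate 1, and 0 or 1 without each other tumor except obese isotype replicate 3. Called lower were 0 chains, or 1 when any of 7 tumors was left out. Endothelial markers were called higher for 1 of 16 (Tek), against the same 3.69% of all genes. That count was 0 without nonobese replicate 1 or obese replicate 3. Pericyte markers were called higher for 0 of 11.

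The summed levels of 3 further marker lists did not overlap between the groups. Dendritic cell markers summed to 99.1, 95.4 and 66.2 CPM in nonobese and 104, 136 and 135 CPM in obese tumors, and 3 of 7 tested members were called higher, of which 1 passed the filter only through the obese tumors. Neutrophil markers summed to 1.12, 2.44 and 4.37 CPM in nonobese and 6.20, 6.74 and 7.71 CPM in obese tumors, with 0 of 3 called, although 2 were called higher without nonobese replicate 3, and 1 without nonobese isotype replicate 1, with DESeq2, with the replicate block or with at least 1 count in all tumors. Keratinocyte markers summed to 28.7, 28.6 and 11.8 CPM in nonobese and 32.5, 30.2 and 32.4 CPM in obese tumors, with 0 of 4 called. Only these 4 of the 13 keratinocyte markers had enough counts to be tested, and 4 others had 0 counts in all 6 tumors. The keratin gene Krt14 had 0, 2 and 3 counts in nonobese and 0, 1 and 0 in obese tumors. The sum is therefore not read as a difference in keratinocytes. For dendritic cells and keratinocytes the lowest obese tumor lay just above the highest nonobese tumor. The part of these cells in the other results was not tested.

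Acute-phase genes encode plasma proteins of inflammation. Of 8 tested, 4 were called higher and 0 lower (1 lower without nonobese replicate 3), with a median log2 fold change of 1.26. Hp, which encodes haptoglobin and is made by liver, fat and myeloid cells, was at 2.03, 7.33 and 12.4 CPM in nonobese and 57.8, 27.7 and 85.4 CPM in obese tumors (log2 2.97, standard error 0.56, FDR 0.0435 from edgeR). Its order of obese tumors was that of the adipocyte genes, with replicate 2 the lowest. Serpina3g, a protease inhibitor induced by interferon, had a log2 fold change of 2.92 (FDR 0.0472) and was highest in obese replicate 2. Of 17 tested eicosanoid genes, 6 were called higher, which was 3 without nonobese replicate 1 and 2 without obese replicate 2. Of the 17, 3 passed the filter only through the obese tumors, and 1 of these is among the 6. Pla2g7, an enzyme on that list that degrades platelet-activating factor, was at 2.03, 2.72 and 2.85 CPM in nonobese and 8.04, 9.54 and 9.03 CPM in obese tumors. All 3 obese tumors were close together for this gene (log2 1.80, standard error 0.34, FDR 0.0435 from edgeR).

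The part of cell content in these results was not tested, and the order of the tumors is given beside it. Over all 483 called higher genes, obese replicate 1 was the lowest obese tumor for 434, and nonobese replicate 3 the highest nonobese tumor for 330. Across all 13095 genes these numbers were 5185 and 5315. Obese replicate 1 also had the lowest summed T and NK cell and macrophage markers of the obese tumors, and nonobese replicate 3 the highest of the nonobese tumors. Without obese replicate 1 the called higher genes rose in number to 690, and without obese replicate 3 they fell to 310. Ifit3 ranged from 2.10 to 2.63 in log2 fold change and Rsad2 from 1.26 to 1.52 across the fits that each omit 1 of the 12 tumors.

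Of the 50 genes with an FDR below 0.05, 41 were on a list and 9 were not. Those outside the ranked genes were chosen after their values were seen. Kcnj13 (chromosome 1, 87384577 to 87394729), an inward rectifier potassium channel gene that melanocytes and pigment epithelium express, was at 43.6, 24.7 and 39.3 CPM in nonobese and 120.3, 191 and 130.3 CPM in obese tumors. The groups did not overlap (log2 2.04, standard error 0.29, FDR 0.0173 from edgeR). Angptl4, a secreted inhibitor of lipoprotein lipase, had a log2 fold change of 1.69 (FDR 0.0267). Mgll, which is on a lipid list and encodes monoacylglycerol lipase, was at 163 ± 35.2 CPM in nonobese and 405 ± 69.9 CPM in obese tumors (SD, n = 3 each, FDR 0.0267 from edgeR). Itgal, the leukocyte integrin LFA-1, had a log2 fold change of 2.30, and the nuclear body gene Sp110 of 2.46. Tmem140 (1.48), Nmi (0.82) and Tmod1 (0.64) completed the higher genes.

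The 3 genes lower at an FDR below 0.05 changed less. Wipf3, an actin regulator, was at 51.0 ± 3.22 CPM in nonobese and 29.9 ± 1.81 CPM in obese tumors (SD, n = 3 each), or -0.77 on the log2 scale (FDR 0.0305 from edgeR). Ppp1r16b, a regulatory subunit of protein phosphatase 1, was at 62.5 ± 3.25 and 39.6 ± 4.23 CPM, a log2 fold change of -0.66 (FDR 0.0435). Cth was the third and the only one to pass a 2-fold change.

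Cth (chromosome 3, 157894248 to 157925081) encodes cystathionine gamma-lyase, which makes cysteine. It was at 14.5, 17.9 and 16.7 CPM in nonobese and 7.90, 8.46 and 6.75 CPM in obese tumors. The groups were far apart with little spread, at a log2 value of -1.09 (FDR 0.0447 from edgeR, standard error 0.21). Cth belongs to the amino acid stress genes, which the transcription factor ATF4 induces when amino acids are short or proteins misfold. Of 24 tested members, 13 had an unadjusted P below 0.05 and were lower in obese tumors, against 4.56% of all genes. Of the 24, 23 had a negative log2 fold change, and the median of the list was -0.39. Called lower were 2, Cth and Fgf21, against 0.565% of all genes, and that count was 4 without nonobese replicate 3. The 25 listed members summed to 4149, 4220 and 3260 CPM in nonobese and 2927, 3233 and 3293 CPM in obese tumors, so the groups overlapped. Nonobese replicate 3 was the highest nonobese tumor for 1 of the 24, against 5315 of all 13095 genes. For 8 of the 24 members the obese tumors lay below all nonobese tumors, against 7.06% of all genes.

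The ATF4 target motif of these genes was searched as TGATGNAA or TTNCATCA in the same 250 bases. It was present in 6 of the 21 members with a promoter entry (28.6%), against 2.48% of all tested genes with one. The members were listed as genes that ATF4 induces, so this share is largely set by the choice of the list. It is no result about the tumors. Among called lower genes 2 of 49 held the motif (4.08%), and among called higher genes 11 of 333 (3.3%). The windows of 4 members that held it are printed to show the motif beside their values, in the same notation.
Pck2: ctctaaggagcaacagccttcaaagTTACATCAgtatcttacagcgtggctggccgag
Chac1: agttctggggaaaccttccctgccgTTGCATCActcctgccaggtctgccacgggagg
Asns: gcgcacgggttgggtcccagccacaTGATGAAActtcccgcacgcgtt
Slc7a11: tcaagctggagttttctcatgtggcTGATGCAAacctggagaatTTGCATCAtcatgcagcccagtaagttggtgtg

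These windows lie at chr14:55540138-55540195 (plus, Pck2), chr2:119351024-119351081 (plus, Chac1), chr6:7693210-7693257 (minus, Asns) and chr3:50443628-50443704 (minus, Slc7a11). Pck2, the mitochondrial enzyme that makes phosphoenolpyruvate, was at 163, 146 and 112 CPM in nonobese and 63.5, 88.4 and 87.5 CPM in obese tumors. It was without overlap at a log2 value of -0.81 (FDR 0.0985 from edgeR, standard error 0.19). Chac1, which degrades glutathione, was at 45.0, 67.1 and 45.0 CPM in nonobese and 30.5, 33.1 and 41.4 CPM in obese tumors (log2 -0.58, FDR 0.462 from edgeR), also without overlap. Asns and Slc7a11, asparagine synthetase and the cystine transporter, had log2 fold changes of -0.30 and -0.75 and overlapped.

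Atf4 itself was at 259, 366 and 353 CPM in nonobese and 246, 197 and 246 CPM in obese tumors, without overlap but with nonobese replicate 1 close to the obese tumors (log2 -0.50, FDR 0.422 from edgeR). The hormone gene Fgf21 was at 7.57, 10.8 and 3.83 CPM in nonobese and 0.635, 3.15 and 2.01 CPM in obese tumors (log2 -1.91, standard error 0.59, FDR 0.226 from edgeR). Gpt2, Aldh1l2, Psph, Trib3, Atf5, Vldlr, Mthfd2 and Ddr2 made up the rest of the 13, and Ddr2 is a collagen receptor not known as a stress gene. The number with P below 0.05 ranged from 5 without nonobese replicate 2 to 15 without nonobese replicate 3, and it was 7 without obese replicate 2 and 8 without obese replicate 1 or nonobese replicate 1. The median stayed between -0.46 and -0.38 over all 12 tumors left out in turn.

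**Figure D4:**
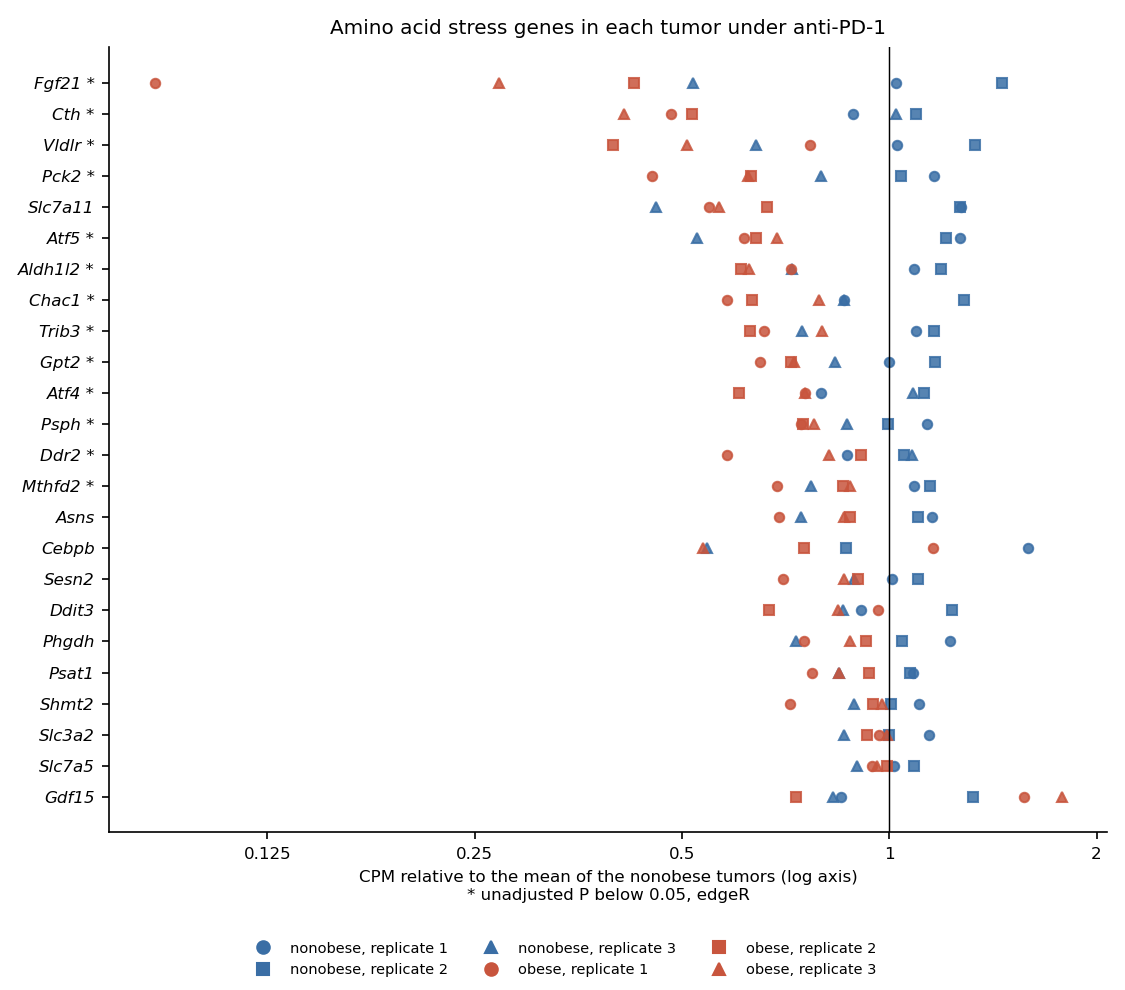
CPM of the 24 tested amino acid stress genes in each tumor under anti–PD-1, divided by the mean of the nonobese tumors, on a log axis. Each point is a tumor, the marker gives its replicate, and asterisks mark an unadjusted P below 0.05 from edgeR. Most obese tumors (red) lay left of 1, and those of Cth lay apart from all nonobese tumors (blue).

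Of the 74 genes called lower, 5 were on a list, as were 193 of the 483 called higher. The share of all tested genes on a list is not given here, so the 5 are not read as few. The 12 with the smallest P values among those called lower without overlap were Cth, Slc17a9, Zfp661, Rbm12b1, Hoxb9, Hcn3, C030034I22Rik, Arhgap33, Cxadr, Fgf21, P2rx3 and Aspg, with log2 fold changes from -1.91 to -1.05. Slc17a9, which loads ATP into vesicles, was at 2.74, 2.63 and 3.34 CPM in nonobese and 0.917, 1.28 and 1.19 CPM in obese tumors (log2 -1.35, standard error 0.32, FDR 0.100 from edgeR). Its groups were tight and apart. P2rx3 encodes an ATP-gated channel and had a log2 fold change of -1.05 (FDR 0.227). Hoxb9, a homeobox gene, was at 18.3, 18.7 and 8.20 CPM in nonobese and 5.99, 7.48 and 8.03 CPM in obese tumors, so nonobese replicate 3 nearly touched the obese tumors.

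Growth and core metabolism genes had small median changes. For cell cycle (33 tested), oxidative phosphorylation (78), cytosolic ribosomal proteins (79), glycolysis (19) and cholesterol synthesis (23), 0 members were called in either direction. Without obese replicate 2, 1 cholesterol gene and 1 oxidative phosphorylation gene were called lower, and without nonobese replicate 3, 1 cholesterol gene. Their median log2 fold changes were 0.03, 0.10, 0.11, 0.05 and -0.14. Unadjusted P values below 0.05 were found for 1 cell cycle gene, Ccnb2, and 3 cholesterol genes, Hmgcs1 and Pmvk among them, all lower in obese tumors. Of all genes, 4.56% were lower at that P value. Of the 23 cholesterol genes, 18 had a negative log2 fold change. The other lists of this paragraph held 0 genes at that P value, against 1345 of all 13095 genes in either direction.

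Estrogen-related genes were read from those chosen for qPCR in the original work, which are not an independent choice. Of these 9 genes, 0 were called, and the median log2 fold change was -0.02. Rps6ka2, a kinase of the ERK pathway, had the single P below 0.05, at 37.1, 46.4 and 35.7 CPM in nonobese and 27.4, 27.1 and 27.7 CPM in obese tumors (log2 -0.54, standard error 0.16, FDR 0.203 from edgeR). The obese tumors were nearly equal and below all nonobese tumors. Esr1, the estrogen receptor alpha gene, was at 3.14 ± 0.522 CPM in nonobese and 4.18 ± 0.822 CPM in obese tumors (SD, n = 3 each, FDR 0.676 from edgeR). Aromatase (Cyp19a1) had 0 counts in all 6 tumors and Esr2 no more than 2 in any, which the depth cannot resolve.

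The diet effect was then set beside that in the 6 isotype-treated tumors, which share no tumor with this comparison. In those, 32 genes were higher (0.244%) and 147 lower (1.12%) in obese tumors at the same thresholds. Of the 483 genes higher under anti–PD-1, 430 (89.0%) had a negative log2 fold change under isotype, against 47.9% of all genes. Among the 483, 65 were called lower and 3 called higher under isotype, and their median there was -0.70. The median over the 47 genes higher at an FDR below 0.05 was closer to 0 under isotype, at -0.16.

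The 2 diet effects were compared by the interaction term of the model. An unadjusted P below 0.05 was found for 1687 genes (12.9%), and 0 genes had an FDR below 0.05 from edgeR, with the lowest at 0.0596. At that FDR edgeR gave 11 genes with the replicate block, 55 with at least 1 count in all tumors, 5 with the robust prior and 2 where every tumor had to hold 10 or more counts, and DESeq2 gave 283. It was 197 without obese replicate 1, 111 without nonobese isotype replicate 1 and 37 without nonobese replicate 3 in edgeR, and 0 without each of the other 9 tumors in turn. Of the 50 genes with an FDR below 0.05 under anti–PD-1, 44 had an unadjusted P below 0.05 for the difference, a number partly set by choosing the genes for one of the effects compared. T and NK cell markers had medians of 3.14 under anti–PD-1 and -0.71 under isotype, macrophage markers of 1.29 and -0.68, adipocyte markers of 1.44 and -0.73, and GTPases of 2.60 and -0.62. The anti–PD-1 median of the T and NK cell markers is partly set by the filter, since 10 of the 15 passed it only through the obese tumors of this comparison, as did 3 of 19 adipocyte markers and 2 of 17 GTPases. For type I interferon-stimulated genes the isotype median was -0.04 and for amino acid stress genes 0.01.

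The other 6 of the 50 genes did not pass the test of the difference at an unadjusted P below 0.05. Kcnj13 had log2 fold changes of 2.04 under anti–PD-1 and 1.55 under isotype, and Mgll of 1.31 and 1.42. The remaining genes were Samd9l (0.95 and 0.66), Tmod1 (0.64 and 0.80), Wipf3 (-0.77 and -0.77) and Ppp1r16b (-0.66 and -0.47). All 6 had the same sign under both antibodies, and in both the groups did not overlap.

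**Figure D5:**
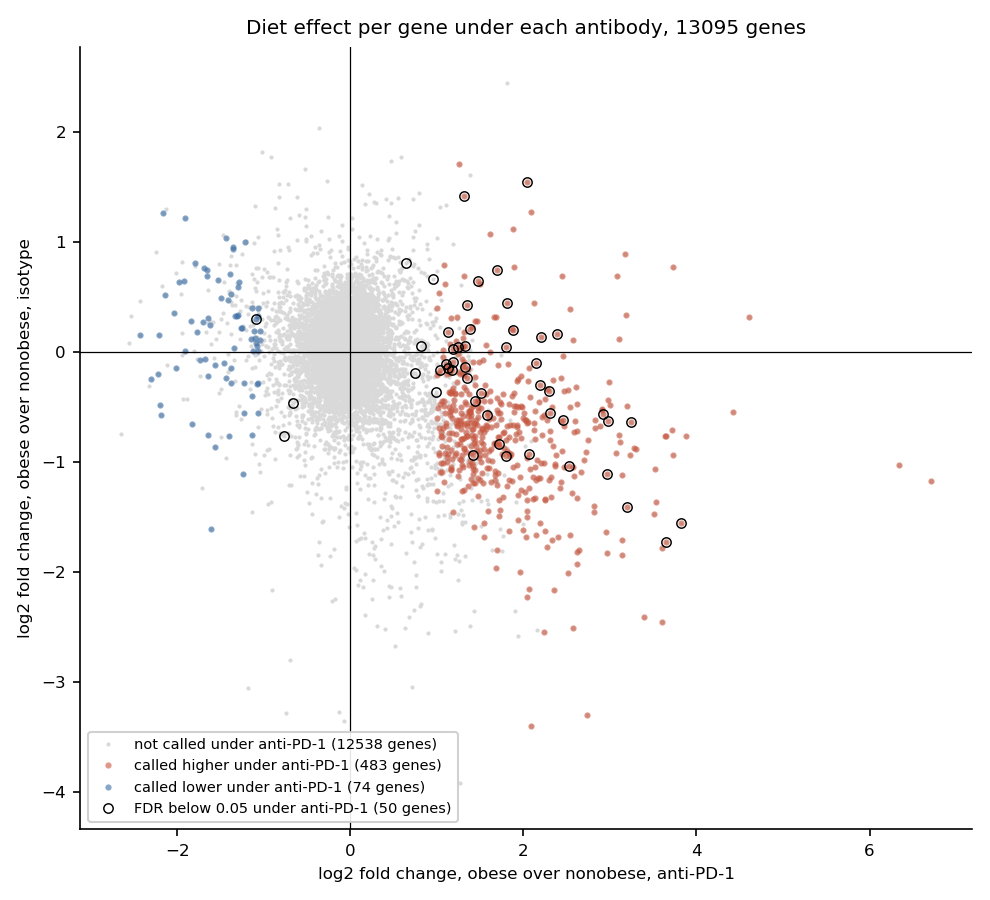
Log2 fold change of obese over nonobese tumors for each of 13095 genes under anti–PD-1 (x axis) and under isotype (y axis). Red and blue points were called higher (483) and lower (74) under anti–PD-1, and circles mark the 50 genes with an FDR below 0.05. Of the red points, 430 lie below 0 on the isotype axis.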

How the data were processed

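RNA was sequenced from 12 tumors (3 per group). Per the labels, the authors prepared libraries with a stranded poly(A) kit, aligned reads to mm10 with STAR 2.7.0f and counted them per gene with HTSeq 0.9.1. The deposited values are raw counts for 23420 genes, with no normalization. Whether counting used strand is not given in the sources used here, so overlapping antisense genes cannot be told apart. Reads carried no molecular identifiers, so the floor of 3 counts covers counting error only.

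The filterByExpr function of edgeR 4.0.16 under R 4.3.3 kept 13095 of the 17519 genes with a count. TMM-scaled counts were fitted with 4 group means over 12 tumors (8 residual degrees of freedom) and tested by the quasi-likelihood F-test in its earlier form (legacy=TRUE), with Benjamini-Hochberg FDR over all genes tested. The standard error is the log2 fold change divided by the square root of F. The 51 gene lists, the members described and the named genes were chosen with earlier results of these data known. Named were, in each direction, the 12 genes of smallest P and 5 of largest change called without overlap, up to 5 called members per list (3 of smallest P where none was called), the study's qPCR genes and defining markers. Other genes with an FDR below 0.05, and members printed to complete a count, were chosen after their values were seen. Promoters and coordinates (12226 symbols matched) are those of RefSeq, GRCm38.p6.

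The code was tested on simulated data with known fold changes. Replicate numbers come from the labels, which do not say what they mark. Deviations of same-numbered tumors from their group means correlated at 0.443, 0.111 and 0.351. Of the 6 pairs of unlike number, 2 were similar to the second value (0.117 and 0.119) and 4 were negative. All 3 same-number values exceeded 0.1, so a replicate block was fitted as a paired alternative. Alternatives were DESeq2 1.42.0, other scalings, filters, priors and forms of the test, a fit of 6 tumors, the block and leaving out each tumor.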

Additional observations from a re-analysis of the deposited data

Results flagged for a closer look

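For 2 of the genes named for their rank, all tumors of one diet lay on one side under anti–PD-1 and on the other side under isotype. Apol9a was higher in obese tumors under anti–PD-1 (log2 3.20) and lower under isotype (-1.41), with a log2 difference between the 2 diet effects of 4.61 (standard error 0.68, unadjusted P = 1.07e-05, FDR 0.0596 from edgeR). Slc17a9 was lower under anti–PD-1 (-1.35) and higher under isotype (0.94), with a difference of -2.29 (standard error 0.44, unadjusted P = 0.000161, FDR 0.107 from edgeR). Neither difference passed an FDR of 0.05.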

How the results depend on the processing

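The number of genes called higher (483) was 283 when at least 10 counts were required in every tumor, and it ran from 310 to 690 when each tumor was left out. The number called lower (74) was 30 with that filter, 153 with at least 1 count in all tumors and 44 in a fit of only the 6 tumors, and it ran from 45 to 205 over the left-out tumors (205 without nonobese replicate 1). The 50 genes with an FDR below 0.05 became 270 with DESeq2, 104 with at least 1 count, 95 with the replicate block, 87 with the current form of glmQLFit and 0 in the fit of 6 tumors, where the lowest FDR was 0.0922. Without single tumors that count ran from 2 (without nonobese replicate 2) to 214 (without obese replicate 1). All 50 genes also had an FDR below 0.05 with DESeq2 and with the block. For the difference of the diet effect between treatments, the 754 genes past both thresholds became 451 with at least 10 counts in every tumor, and ran from 612 to 936 over the left-out tumors. Counts of called members moved by over 1.5 times (or from or to 0) in 41 of 914 cases under other settings and in 83 of 1224 with a tumor left out. Medians of lists moved by more than 1 SD of the mean log2 CPM of the list between tumors of a group in 11 of 457 and 11 of 612 cases, and smaller shifts were common. With at least 10 counts in every tumor, members called higher were 3 for adipocytes, 11 for GTPases, 1 for checkpoints and costimulation and 3 for eicosanoids, and 1 amino acid stress gene was called lower.

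Over the settings other than left-out tumors, 1539 of the values of named genes kept their direction and call, 13 lost the call, 6 gained it and 1 reversed, Tiam1 at 0.00249 with at least 10 counts. With a tumor left out, 2006 kept both, 129 lost the call, 10 gained it and 15 reversed, and the cause was not tested. The log2 ranges of these genes were Eno2 (-0.41 to 0.00704), Krt5 (-4.13 to 2.12), Slc4a1 (-0.0746 to 0.88), Acta1 (-0.17 to 1.61), Beta-s (-0.0878 to 1.69), Sfn (-0.0368 to 0.23), Farp1 (-0.22 to 0.0256), Kcnk5 (-0.076 to 0.37), Tiam1 (-0.10 to 0.0516) and Alas2 (-0.32 to 1.18). Depth limited T cell and hormone genes, which had few counts per tumor.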
